A study of Mus musculus with 9 samples.

Results

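Accessible chromatin at 33 genes that mark macrophages and monocytes (17 genes), neutrophils (8 genes) or dendritic cells (8 genes) was examined in age-associated B cells (ABCs) of lupus-prone mice. A peak, a stretch of open chromatin, was given to a gene when it overlapped the RefSeq body of that gene, or when it overlapped no protein-coding gene and had that gene as its nearest body within 100 kb. By this rule 106 of the 61540 deposited peaks belonged to 20 of the 33 genes. The macrophage and monocyte genes held 54 peaks at 11 genes, the neutrophil genes 10 peaks at 3 genes and the dendritic cell genes 42 peaks at 6 genes. Of these peaks, 48 lay in gene bodies and 58 lay outside them. The rule gives peaks to genes by name and position, whereas the genes themselves were chosen with earlier results of these data known.

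Macrophages, neutrophils and dendritic cells develop from bone marrow progenitors under transcription factors such as PU.1 and the C/EBP family, of which Cebpa drives the myeloid branch, Cebpb the monocyte and macrophage programme and Cebpe the late maturation of granulocytes. Dendritic cells depend on the receptor Flt3, and Zbtb46 marks the conventional dendritic lineage whereas Siglech marks plasmacytoid dendritic cells. ABCs increase in number in old and in lupus-prone animals, depend on the transcription factor T-bet (gene Tbx21), and carry CD11b and CD11c (genes Itgam and Itgax), surface proteins better known from myeloid and dendritic cells.

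ATAC-seq, in which a transposase cuts open DNA, had been run on ABCs sorted by flow cytometry from the spleens of MRL/lpr mice aged 20 weeks that had been made into mixed bone marrow chimeras. MRL/lpr mice carry the lpr mutation of Fas and develop spontaneous lupus, and all 3 groups share this background. The groups differ in Tlr9, which encodes an endosomal receptor for DNA: KO cells lacked it (TLR9-/-), P915H cells were homozygous for a mutant receptor that the study describes as non-signaling (P915H/P915H), and WT cells had intact Tlr9. Each group had 3 samples. The labels do not name the surface markers of the sort, the makeup of the chimeras' remaining host cells or which samples came from the same chimera. The p-values are therefore set against a sample-to-sample spread that could be technical.

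Values are log2 of CPM, the number of reads in a peak scaled to a common total over all peaks, so a difference of 1 is a 2-fold difference. To compare levels between peaks, they are also given per kb of peak length. Both peaks in the body of Tlr9 were open in all 9 samples, at 5.75 to 6.16 and 3.29 to 3.65 log2 CPM, and neither differed between genotypes by limma (adjusted p = 0.294 to 0.898 and 0.484 to 0.845). An ATAC-seq peak in Tlr9 does not report whether the protein is made, so these peaks check no label. All 6 B cell marker genes (95 peaks) and all 5 ABC marker genes (69 peaks) had peaks. Of 4 T cell marker genes, Cd4 and Cd8a had no peak and Cd3e and Cd3g had 3 in total. Among all protein-coding genes 68.7% had a peak by the same rule, so having a peak does not by itself mark a cell type. Each ABC marker gene had a peak at its start, as did the 3 B cell marker genes whose start is in the RefSeq table.

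The start regions of 4 genes are printed because a peak overlaps each and each gene recurs in the comparisons. Each peak covers only part of the printed stretch, on the side next to the start. The Flt3 peak (chr5:147400280-147400491) reaches only the last bases of its stretch. Cd68 encodes a lysosomal protein of macrophages (chr11:69666171-69666420, minus strand). Ms4a7 encodes a membrane protein of macrophages (chr19:11336147-11336396, minus strand). Flt3 encodes the receptor for the dendritic cell growth factor Flt3 ligand (chr5:147400490-147400739, minus strand), and Siglech a lectin of plasmacytoid dendritic cells (chr7:55767934-55768183, plus strand). These are the 250 bases before the RefSeq start (GRCm38.p6, the assembly behind mm10), 5′ to 3′, with motif matches in capitals.
Cd68: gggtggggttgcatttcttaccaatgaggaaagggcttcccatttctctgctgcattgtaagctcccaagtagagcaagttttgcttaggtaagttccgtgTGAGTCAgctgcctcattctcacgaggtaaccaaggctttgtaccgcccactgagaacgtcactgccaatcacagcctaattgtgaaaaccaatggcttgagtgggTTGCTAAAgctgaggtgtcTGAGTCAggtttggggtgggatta
Ms4a7: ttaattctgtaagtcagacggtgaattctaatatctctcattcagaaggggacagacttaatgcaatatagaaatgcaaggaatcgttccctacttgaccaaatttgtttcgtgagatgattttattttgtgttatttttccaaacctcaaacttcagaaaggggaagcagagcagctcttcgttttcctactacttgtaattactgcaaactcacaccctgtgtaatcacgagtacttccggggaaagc
Flt3: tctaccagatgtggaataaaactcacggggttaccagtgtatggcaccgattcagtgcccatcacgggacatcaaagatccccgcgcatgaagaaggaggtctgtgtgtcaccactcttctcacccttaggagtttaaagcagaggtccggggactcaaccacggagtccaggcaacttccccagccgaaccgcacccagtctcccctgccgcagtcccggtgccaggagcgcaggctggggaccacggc
Siglech: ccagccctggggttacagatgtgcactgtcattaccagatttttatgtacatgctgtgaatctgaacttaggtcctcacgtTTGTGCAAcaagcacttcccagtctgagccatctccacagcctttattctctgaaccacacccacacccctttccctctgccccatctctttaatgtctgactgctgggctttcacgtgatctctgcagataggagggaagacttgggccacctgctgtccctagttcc
The capitals in Cd68 mark 2 matches to the AP-1 motif TGANTCA and, between them, 1 to the C/EBP motif TTGCNNAA. The capitals in Siglech mark 1 match to the C/EBP motif.

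Motifs were searched on both strands of windows from 250 bases before to 50 bases after each start. In Cd68 the AP-1 matches lay 149 to 143 and 24 to 18 bases before the start, the C/EBP match 43 to 36 bases before it, and a match to the ETS and IRF composite GGAANNGAA 24 to 32 bases after it. The Siglech match lay 169 to 162 bases before the start, outside the peak there (chr7:55768071-55768272), which begins closer to the start. Over all 32851 windows of the RefSeq table, 7.81% held the AP-1 motif, 10.8% the C/EBP motif, 8.24% the composite and 3.20% the PU.1 core GAGGAAGT. None of the 4 motifs was found in the windows of Flt3, Ms4a7, Cebpa, Cebpb or Fcgr1 that had a peak, which says only that these letters are not in these windows.

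Of the 33 genes, 13 had no peak in the deposited list, which is a single table for all 9 samples. Of the 17 macrophage and monocyte genes, 6 had none: Lyz2 (lysozyme), Vcam1, the complement genes C1qa, C1qb and C1qc, and Clec4n, a lectin that binds fungal sugars. The nearest peak of any kind lay 38.5 kb from Lyz2, 38.7 to 54.5 kb from the C1q genes, 102 kb from Vcam1 and 277 kb from Clec4n. Of the 8 neutrophil genes, 5 had none: S100a8 and S100a9, which form calprotectin, the granule enzyme genes Mpo and Elane, and the chemokine receptor gene Cxcr2. The nearest peak lay 15.9 and 39.4 kb from S100a8 and S100a9, 28.5 kb from Cxcr2, 7.09 kb from Mpo (a peak in Lpo) and 2.41 kb from Elane. The dendritic cell genes Cd209a and Clec10a, both encoding lectins, had none either, with the nearest peak 24.6 and 30.9 kb away. Where the nearest peak lay within 100 kb, it overlapped another protein-coding gene or was closer to one.

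These 13 genes therefore have no value in any genotype. By the same rule 68.7% of 21900 protein-coding genes had a peak, beside 60.6% of the 33 genes. A peak lay at the start of 7 of the 24 genes with a RefSeq start window (Cebpa, Cebpb, Fcgr1, Cd68, Ms4a7, Siglech and Flt3), beside 50.9% of 17492 genes over the table. Neither pair of shares was tested.

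Where peaks existed, their WT levels were those of ordinary peaks. The median WT level was 5.12 log2 CPM per kb for the macrophage and monocyte peaks, 4.95 for the neutrophil peaks and 4.81 for the dendritic cell peaks, beside 5.14 over all peaks, 5.21 for B cell marker peaks, 4.81 for ABC marker peaks and 3.05 for the T cell marker peaks. Of the 106 peaks, 52 were above the median of all peaks, and 5 were in the top decile of all peaks (4 macrophage and monocyte, 1 dendritic cell).

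**Figure D1:**
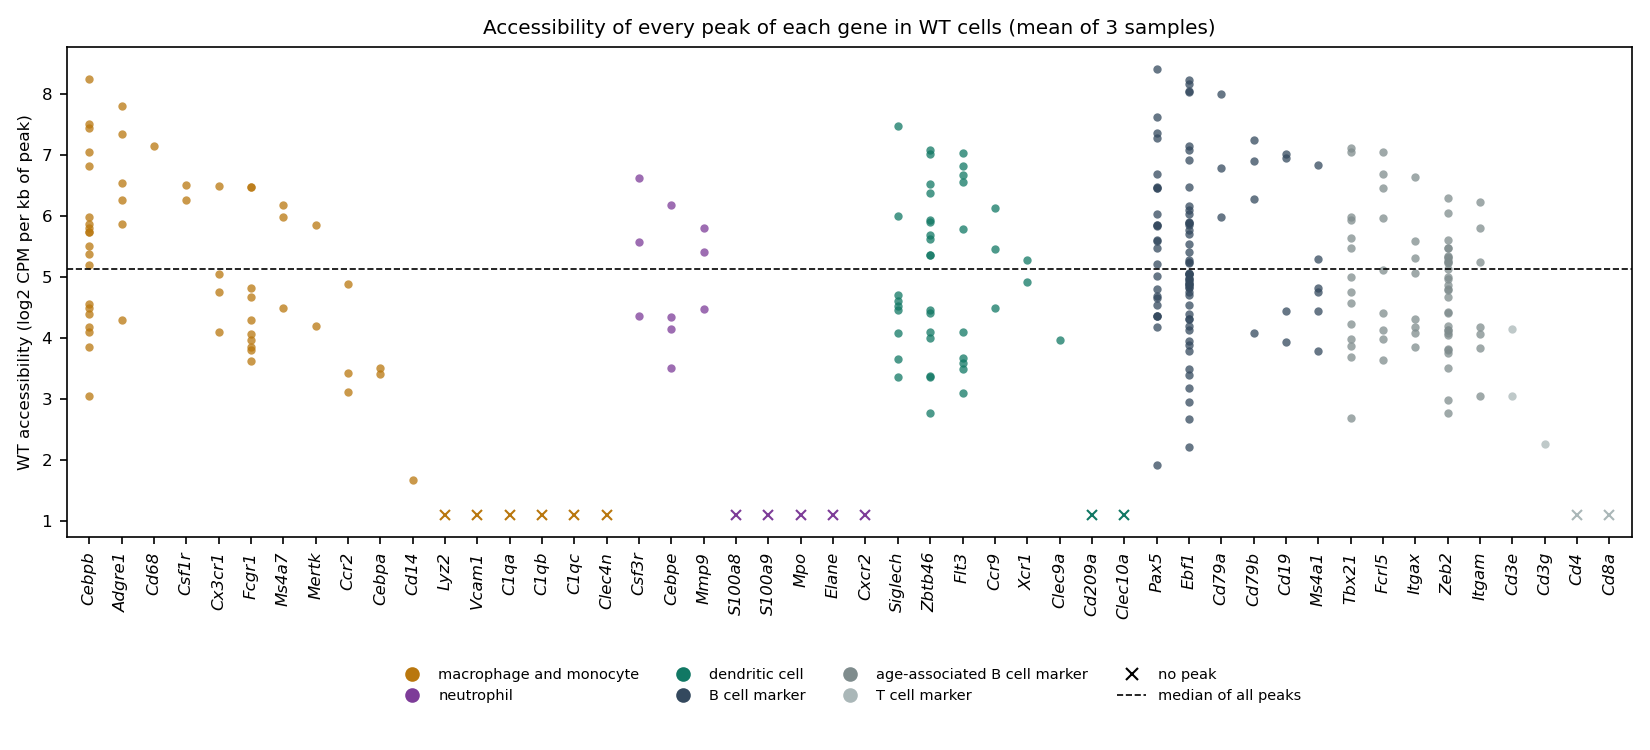
WT accessibility of every peak of each gene, in log2 CPM per kb of peak (mean of 3 samples; each point is a peak, each cross a gene with no peak), with B cell, ABC and T cell marker genes at the right. The dashed line is the median of all 61540 peaks (5.14), and 52 of the 106 myeloid and dendritic cell peaks lie above it.

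Among the macrophage and monocyte genes the most open peak belonged to Cebpb. It lay 84.9 kb from the gene (chr2:167775341-167775553) and stood at 5.90, 6.04 and 6.07 log2 CPM in the 3 WT samples, or 8.24 per kb, which is the percentile 96.7 of all peaks. Next came Adgre1, the gene of the macrophage antigen F4/80, with a peak 11.3 kb away at 7.80 log2 CPM per kb (percentile 93.8). The peak at the start of Cd68 (chr11:69666090-69666322) had 4.98, 5.08 and 5.05 log2 CPM in WT, or 7.14 per kb (percentile 87.4), so that the sequence printed for Cd68 is among the more open start regions of these genes. Assignment by distance leaves unknown which gene a peak controls.

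The remaining macrophage and monocyte genes had their most open WT peak at lower levels per kb. Csf1r (receptor for the macrophage growth factor M-CSF) had 6.51, Cx3cr1 (fractalkine receptor) 6.50, Fcgr1 (high-affinity IgG receptor) 6.48, Ms4a7 6.18 and Mertk (a receptor for dying cells) 5.85 log2 CPM per kb. Below the median of all peaks were Ccr2, a monocyte chemokine receptor gene, at 4.88, Cebpa at 3.51 at its start (percentile 8.40) and Cd14, the lipopolysaccharide co-receptor gene, at 1.67 (percentile 0.0812). The Cd14 peak is 1171 bp long, against a median length of 215 bp for all peaks, so its level per kb is spread over a wide call.

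Neutrophil genes with peaks were Csf3r (receptor for G-CSF) at 6.62, Cebpe at 6.18 and Mmp9 (a granule protease) at 5.80 log2 CPM per kb in WT. No neutrophil gene had a peak at its start among the 6 with a start window. Dendritic cell genes reached 7.47 log2 CPM per kb at Siglech (5.3 kb away, percentile 90.8), 7.08 at Zbtb46, 7.04 at Flt3, 6.14 at Ccr9 (a homing receptor of plasmacytoid dendritic cells), 5.29 at Xcr1 (a chemokine receptor of cross-presenting dendritic cells) and 3.98 at Clec9a, whose peak also overlaps Clec12b. The start of Flt3 was itself open, at 4.57, 4.55 and 4.19 log2 CPM in WT (6.68 per kb), whereas the start of Siglech had 2.34, 2.38 and 2.16 (4.61 per kb). KO and P915H samples spanned 4.38 to 4.78 at the Flt3 start and 2.18 to 2.80 at the Siglech start, and neither was called (limma adjusted p = 0.625 and 0.207).

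The first comparison sets cells that lack the receptor (KO) beside cells with a receptor described as non-signaling (P915H). Myeloid and dendritic cell peaks changed in both directions: 21 of 106 passed an adjusted p of 0.05 by limma (19.8%), 8 higher and 13 lower in KO. Over all peaks 15.5% passed, 6.55% higher and 8.97% lower in KO, so the share among these genes was near the background. The macrophage and monocyte peaks had 3 higher and 8 lower of 54, with a median log2 difference (KO minus P915H) of -0.15. The neutrophil peaks had 2 higher and 0 lower of 10 (median 0.15), and the dendritic cell peaks 3 higher and 5 lower of 42 (median -0.19). The median over all peaks was -0.01.

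Counts of calls depended on the libraries, because leaving out KO replicate 3 left 7 calls, P915H replicate 2 left 8, KO replicate 2 left 9, P915H replicate 3 left 10 and P915H replicate 1 left 13. The summed CPM over the macrophage and monocyte peaks was 629 to 702 in KO, 746 to 795 in P915H and 701 to 756 in WT. Over the dendritic cell peaks it was 419 to 438, 448 to 482 and 438 to 447, and over the neutrophil peaks 94.8 to 96.8, 85.5 to 91.5 and 91.5 to 94.1. KO and P915H did not overlap in any of these sums. The spread within a genotype is too small in these values, because an effect of the replicate number had been removed before deposit. B cell marker peaks were also lower in KO than in P915H, at 1239 to 1343 in KO, 1394 to 1488 in P915H and 1371 to 1423 in WT. The 3 T cell marker peaks went the other way, as the neutrophil peaks did, at 12.3 to 12.5, 4.68 to 8.32 and 7.09 to 9.76. ABC marker peaks overlapped, at 576 to 602, 557 to 604 and 589 to 618. Individual marker peaks passed too: 4 higher and 15 lower in KO of 95 B cell, 4 and 8 of 69 ABC and 2 and 0 of 3 T cell marker peaks. In bulk samples a different share of cells of another type and a different accessibility per cell cannot be told apart, and the part of either in these results was not tested.

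**Figure D2:**
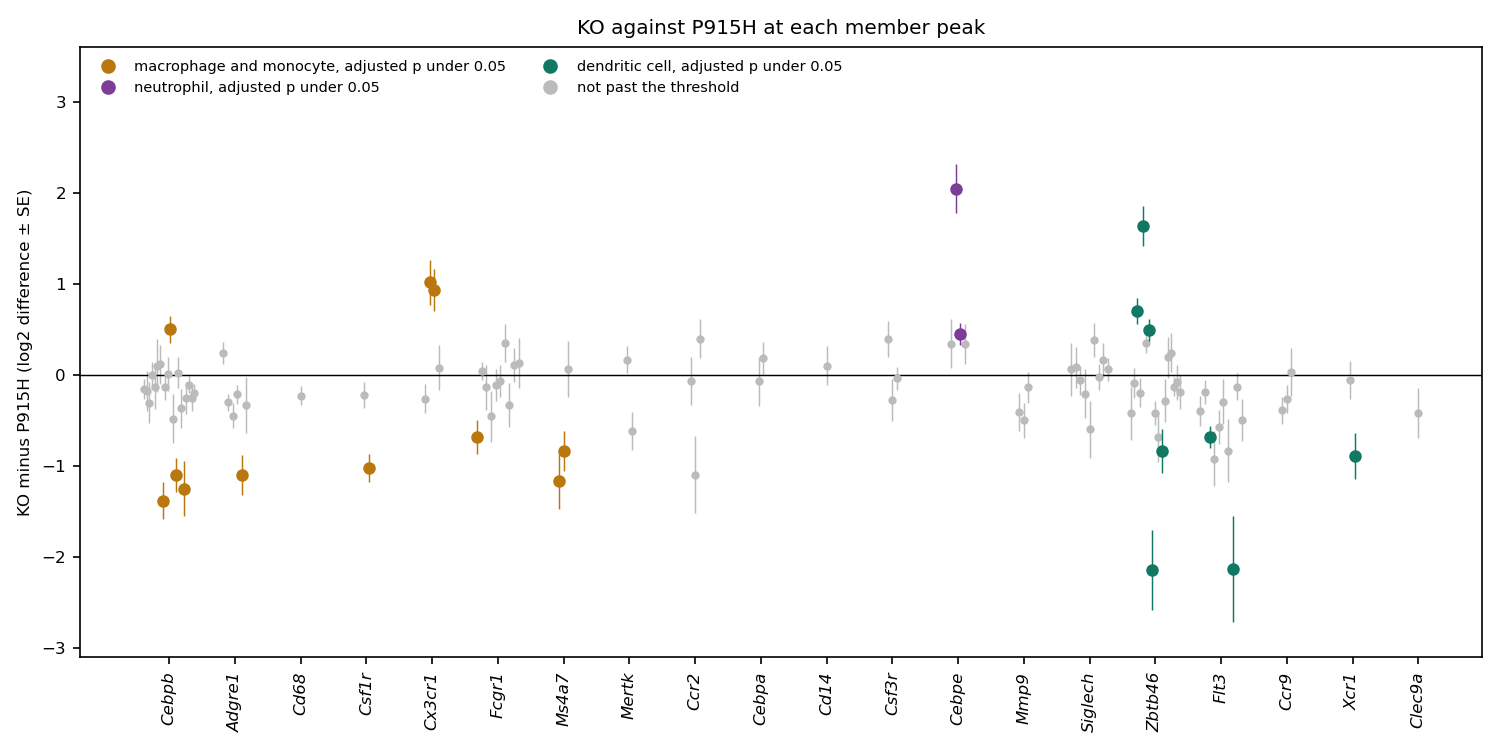
Log2 difference between KO and P915H (KO minus P915H, with the SE of the limma fit) at each of the 106 peaks, by gene and in chromosome order within a gene. Coloured points passed an adjusted p of 0.05: 8 above 0 and 13 below, with calls in both directions at Zbtb46 and, by a peak whose call was lost when any of 8 samples was left out, at Cebpb.

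Cebpb, the gene of a macrophage transcription factor, had the most peaks (20) and 4 of the calls. A peak 5434 bp from the gene (chr2:167695866-167696083) stood at 3.11, 2.46 and 2.90 log2 CPM in the KO samples, 4.00, 4.30 and 4.31 in P915H and 3.69, 4.04 and 3.59 in WT. Every KO sample was below every other sample, and the log2 difference between KO and P915H was -1.38 (SE 0.20, limma adjusted p = 0.00314). A second peak, 57979 bp away (chr2:167748411-167748618), read 2.29, 2.32 and 1.86 in KO, 3.18, 3.15 and 3.45 in P915H and 2.86, 2.87 and 3.03 in WT. Again KO lay below both other groups, P915H above WT, and KO was lower than P915H by a log2 difference of -1.10 (SE 0.19, limma adjusted p = 0.00535). Both calls held when each of the 9 samples was left out in turn.

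Farther out, 69629 bp from Cebpb (chr2:167760061-167760245), KO samples read 2.11, 1.93 and 1.34 log2 CPM, P915H samples 3.08, 3.20 and 2.86, and WT samples 2.58, 2.64 and 3.58. KO was lowest here as well, with WT and P915H overlapping (KO minus P915H -1.25, SE 0.30, limma adjusted p = 0.0208). This call was lost without KO replicate 2, KO replicate 3, P915H replicate 1 or P915H replicate 2 (highest adjusted p 0.116). In the opposite direction, a peak 22933 bp away (chr2:167713365-167713574) was higher in KO by 0.50 (adjusted p = 0.0435), but this call was lost when any KO or P915H replicate, WT replicate 1 or WT replicate 2 was left out (highest adjusted p 0.198) and with only the 2 genotypes compared. Across the 20 peaks, 15 had a negative difference, and the 2 peaks that overlap the gene's body, 1 of them at its start, had 0.10 and 0.11 with adjusted p = 0.867 and 0.788.

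**Figure D3:**
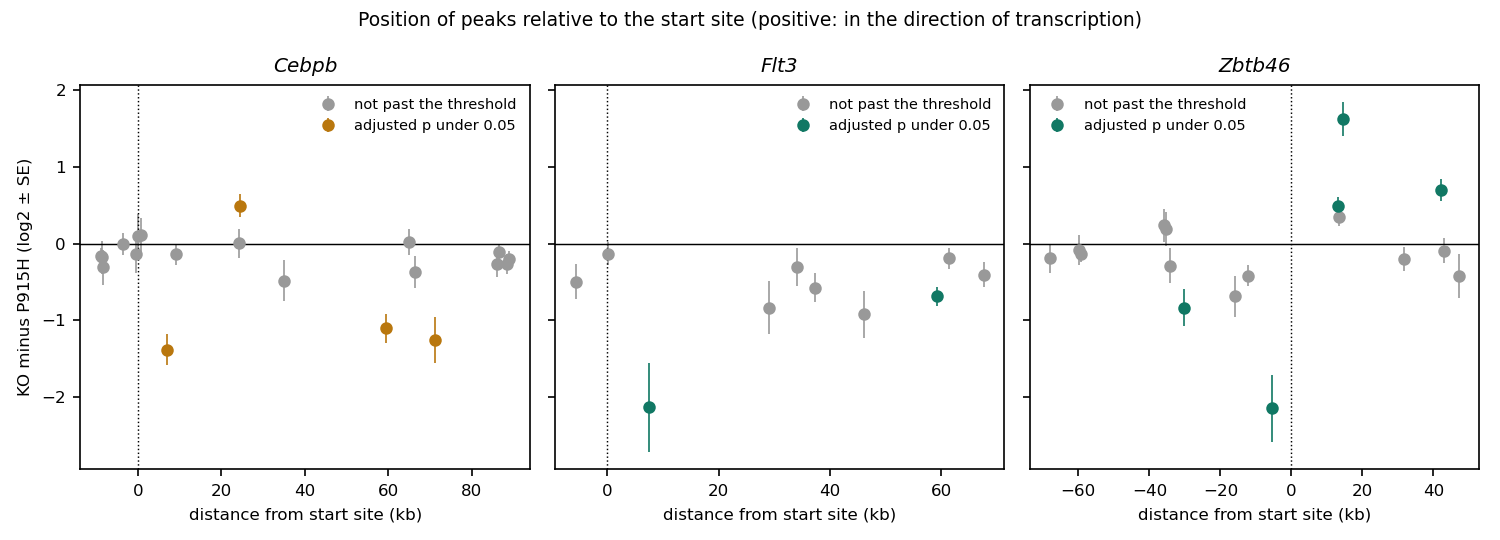
Log2 difference between KO and P915H (with SE) against the distance of each peak from the RefSeq start of Cebpb, Flt3 and Zbtb46, in kb along the direction of transcription. No called peak lies at a start; the 10 Flt3 peaks are all below 0, and called Zbtb46 peaks are higher downstream of the start and lower upstream of it.

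Csf1r, whose product is the defining growth factor receptor of macrophages, had 2 peaks in its body. At chr18:61113273-61113481 the KO samples read 3.58, 3.20 and 3.27 log2 CPM, P915H samples 4.23, 4.41 and 4.47 and WT samples 3.91, 4.12 and 3.98. The 3 groups did not overlap, in the order KO, WT, P915H. KO was lower than P915H by a log2 difference of -1.02 (SE 0.15, limma adjusted p = 0.00323), which held without each of the 9 samples in turn. The other Csf1r peak, the more open of the pair, had -0.22 (adjusted p = 0.332).

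Adgre1 had its called peak 5050 bp from the gene (chr17:57353333-57353531), at 3.89, 3.25 and 3.41 log2 CPM in KO, 4.48, 4.52 and 4.86 in P915H and 3.97, 4.57 and 4.07 in WT. All KO samples lay below the others, and KO minus P915H was -1.10 (SE 0.22, limma adjusted p = 0.00884; 0.0615 at most, without KO replicate 2 or KO replicate 3). Of the 6 Adgre1 peaks, 5 had a negative difference. Ms4a7 was lower in KO at 2 of its 3 peaks, including the one at its start. There (chr19:11336037-11336244) the values were 3.56, 2.76 and 3.20 in KO, 3.71, 4.26 and 4.06 in P915H and 3.63, 3.88 and 3.64 in WT, and KO minus P915H was -0.84 (SE 0.22, limma adjusted p = 0.0300). The KO samples again had the lowest values. Inside the gene (chr19:11324174-11324384) the KO range was 2.28 to 3.42 and the P915H range 3.97 to 4.46, a log2 difference of -1.17 (adjusted p = 0.0274).

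Ms4a7 calls rested on few libraries. Leaving out KO replicate 3, P915H replicate 2 or P915H replicate 3 ended both, KO replicate 2 ended that at the start and P915H replicate 1 that inside the gene (highest adjusted p 0.176 and 0.160), and a limma fit without a trend of the variance with the level called neither. Fcgr1 had 1 called peak of 10, 5080 bp from the gene and 7411 bp from H2bc18 (chr3:96277603-96277829). KO samples read 2.04 to 2.33 and P915H samples 2.74 to 3.04 log2 CPM, without overlap, and the difference was -0.69 (limma adjusted p = 0.0329). That call was lost without KO replicate 2, KO replicate 3 or any P915H replicate (highest adjusted p 0.162).

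Cx3cr1, the fractalkine receptor gene of monocytes and microglia, went the other way at 2 neighbouring peaks in its body. At chr9:120055980-120056221 the KO samples read 2.29, 2.28 and 2.30 log2 CPM, the P915H samples 1.55, 1.00 and 1.28, and the WT samples 1.77, 2.33 and 2.03. The P915H samples were the low ones: KO overlapped with WT, and KO minus P915H was 1.01 (SE 0.24, limma adjusted p = 0.0205). At chr9:120056298-120056508 KO ranged from 2.72 to 3.33 and P915H from 1.88 to 2.55 (difference 0.93, adjusted p = 0.0245). The first call was lost without any KO replicate, P915H replicate 2 or P915H replicate 3 (highest adjusted p 0.118). The other was lost without KO replicate 1, KO replicate 3, P915H replicate 1 or P915H replicate 3 (0.125). The most open Cx3cr1 peak, also in the body (chr9:120054863-120055155), had a difference of -0.26 (limma adjusted p = 0.316). A peak 4.94 kb from the gene had 0.08 (limma adjusted p = 0.877). Cx3cr1, Ccr9, Xcr1 and Ccr2 lie 13.8, 17.5, 17.6 and 17.9 Mb from Tlr9 on chromosome 9. At these genes, Tlr9 genotype and DNA linked to the altered Tlr9 alleles cannot be told apart. The T cell marker genes Cd3e and Cd3g, and Cadm1 of the wider list below, also lie on chromosome 9, farther from Tlr9. The same limit holds for them.

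No peak of Cd68, Mertk, Ccr2, Cebpa or Cd14 was called. At the Cd68 start, KO samples read 5.04, 4.92 and 4.90, P915H samples 5.15, 5.17 and 5.23, and WT samples 4.98, 5.08 and 5.05 log2 CPM. P915H was highest, by a small margin, and KO minus P915H was -0.23 (SE 0.10, limma adjusted p = 0.166). At Ccr2 a peak 30.2 kb away had the largest difference of these genes, at -1.10 (SE 0.43, adjusted p = 0.116), and the second Mertk peak had -0.62 (adjusted p = 0.0709).

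**Figure D4:**
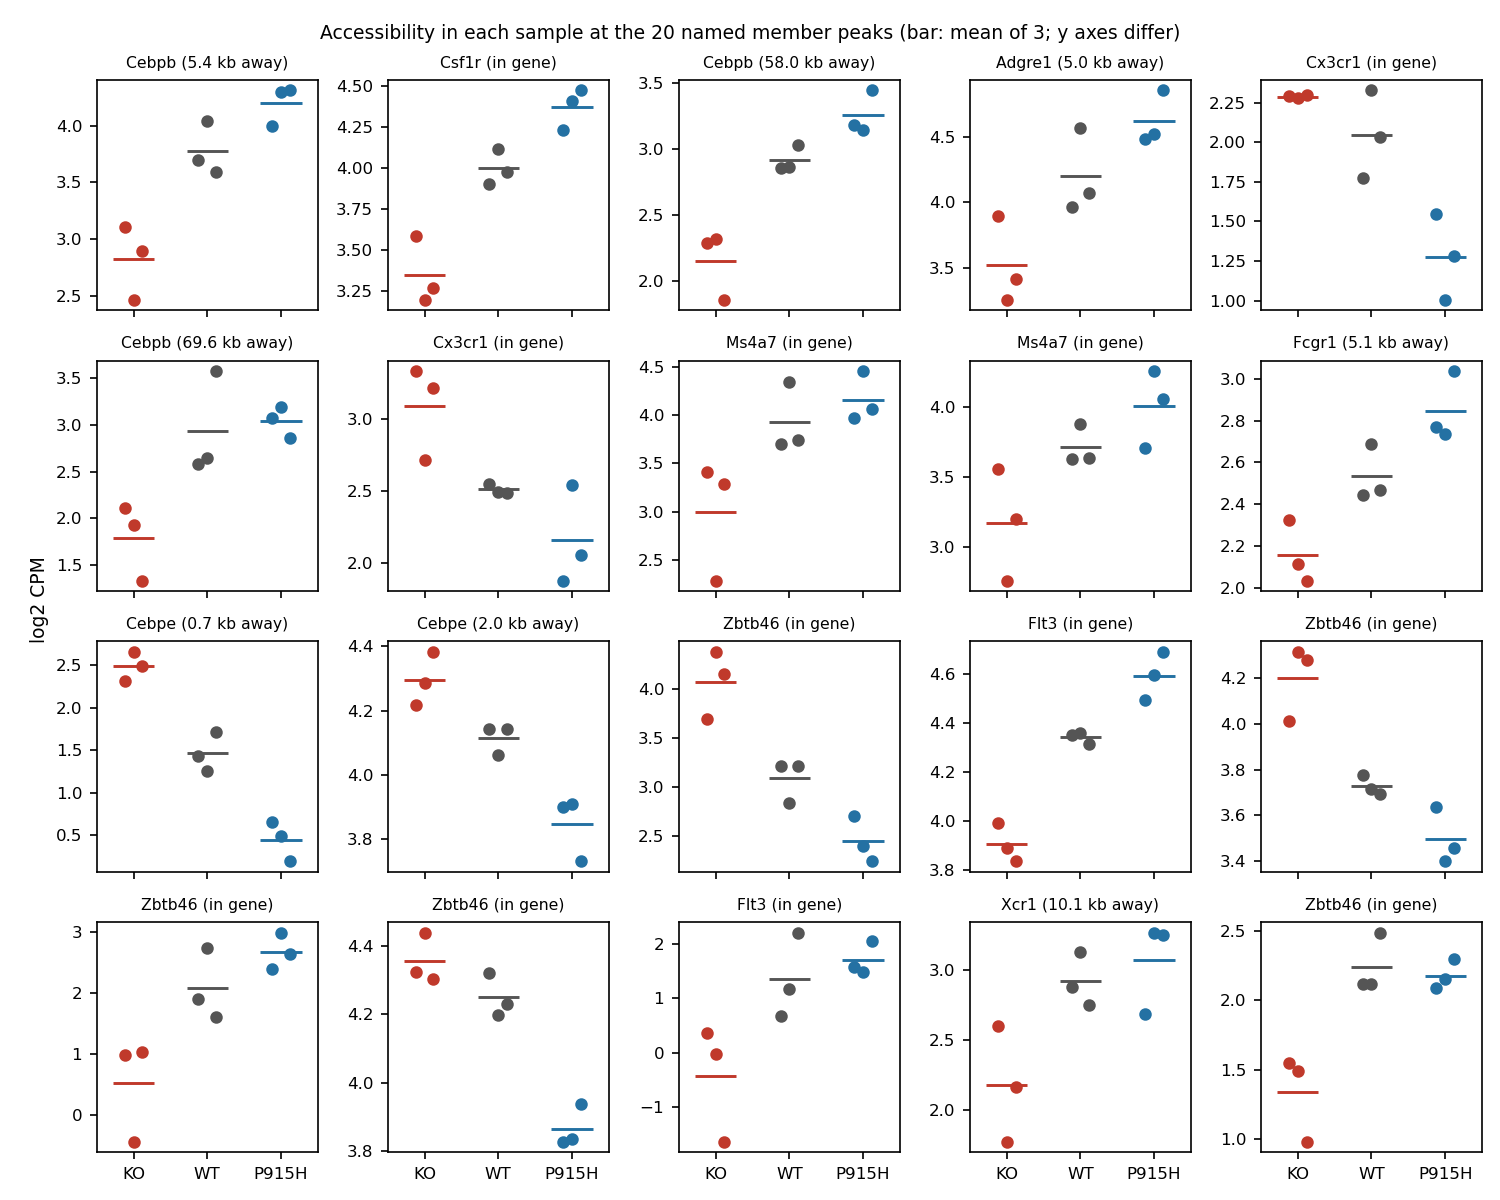
Accessibility (log2 CPM) of each of the 9 samples at the 20 peaks named with their tests, 10 macrophage and monocyte, 2 neutrophil and 8 dendritic cell peaks, with bars at the group means and y axes that differ between panels. KO and P915H samples do not overlap in any panel; the peaks were chosen as past the test, so this is a description.

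Of the 3 neutrophil genes with peaks, Cebpe, the gene of a granulocyte maturation factor, had called peaks and Csf3r and Mmp9 had none. A peak 740 bp from Cebpe (chr14:54712914-54713157; 9058 bp from Slc7a8) read 2.32, 2.66 and 2.50 log2 CPM in KO, 0.65, 0.49 and 0.20 in P915H and 1.43, 1.25 and 1.71 in WT. The 3 genotypes formed separate groups, KO highest and P915H lowest. KO minus P915H was 2.04 (SE 0.27, limma adjusted p = 0.00210), a 4.12-fold difference that kept its call without each of the 9 samples in turn. A neighbouring peak, 2012 bp from Cebpe (chr14:54714186-54714426), was more open and varied less, with KO at 4.22, 4.29 and 4.38, P915H at 3.90, 3.91 and 3.73 and WT at 4.14, 4.06 and 4.14. Its groups did not overlap either, and KO minus P915H was 0.45 (SE 0.12, limma adjusted p = 0.0364).

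The smaller Cebpe call was lost without KO replicate 2, KO replicate 3, any P915H replicate, WT replicate 1 or WT replicate 2 (highest adjusted p 0.168), with only the 2 genotypes compared and without a variance trend. All 4 Cebpe peaks had a positive difference (0.34 to 2.04). Mmp9 had 3 negative differences (-0.50 to -0.14) and Csf3r ranged from -0.28 to 0.39, none of them called.

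Among the dendritic cell genes, the KO mean lay below the P915H mean at all 10 Flt3 peaks (KO minus P915H -2.13 to -0.13). Only 2 of these differences passed the test, and the smallest, -0.13 at the start, was within its SE of 0.15. KO minus WT was negative at 8 of the 10 and P915H minus WT at 0, so the P915H mean lay above the WT mean throughout. No Flt3 peak was called against WT. At chr5:147341098-147341313 in the gene body, KO samples read 4.00, 3.89 and 3.84 log2 CPM, P915H samples 4.50, 4.60 and 4.69 and WT samples 4.35, 4.36 and 4.32. The groups were narrow and separate, in the order KO, WT, P915H, with KO minus P915H at -0.69 (SE 0.12, limma adjusted p = 0.00558, and at most 0.0424 without any of the 9 samples). At chr5:147392869-147393094, a weakly open peak 7508 bp from the start, KO samples read 0.37, -0.03 and -1.63, P915H samples 1.58, 1.48 and 2.04 and WT samples 0.67, 1.16 and 2.20.

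KO replicate 3 stood far below the other KO samples at that weak Flt3 peak. Its difference was -2.13 (SE 0.58, limma adjusted p = 0.0331), lost without KO replicate 2, KO replicate 3 or any P915H replicate (highest adjusted p 0.137) and without a variance trend. The peak at the start of Flt3, which reaches only the last bases of the sequence printed above, had -0.13 (limma adjusted p = 0.625).

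Zbtb46, the transcription factor gene of conventional dendritic cells, had 17 peaks, all in its body, and changed in both directions. The 3 peaks higher in KO all lay downstream of the start in the RefSeq table and the 2 lower ones upstream of it, still within the annotated gene body. At chr2:181409780-181409953 KO samples read 3.69, 4.38 and 4.15 log2 CPM, P915H samples 2.70, 2.39 and 2.24 and WT samples 3.21, 2.83 and 3.22. KO was the high group, with no overlap between any of the 3, and KO minus P915H was 1.63 (SE 0.22, limma adjusted p = 0.00224), a call that held without each of the 9 samples in turn. The lower peak at chr2:181429586-181429834 read 0.99, -0.44 and 1.04 in KO, 2.40, 2.99 and 2.65 in P915H and 1.90, 2.74 and 1.60 in WT. KO replicate 2 was the lowest sample there, all KO samples lay below the others, and the difference was -2.15 (SE 0.44, limma adjusted p = 0.0106; 0.0766 without P915H replicate 2).

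The remaining Zbtb46 calls were smaller. At chr2:181382007-181382224, which also overlaps Lime1, KO ranged from 4.01 to 4.31 and P915H from 3.40 to 3.64 (0.70, limma adjusted p = 0.0101; at most 0.0692, lost without KO replicate 2, KO replicate 3 or P915H replicate 2). At chr2:181411142-181411349 KO ranged from 4.30 to 4.44, overlapping with WT at 4.20 to 4.32, and P915H from 3.83 to 3.94 (0.49, adjusted p = 0.0219; at most 0.109, lost without KO replicate 2, KO replicate 3 or any P915H replicate). At chr2:181454500-181454714 KO was low, at 0.98 to 1.55, whereas P915H at 2.09 to 2.30 and WT at 2.12 to 2.49 overlapped (-0.84, adjusted p = 0.0423; at most 0.180). That call was lost without KO replicate 2, KO replicate 3, any P915H replicate, WT replicate 1 or WT replicate 2, after quantile normalization and with only the 2 genotypes compared.

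Xcr1, the receptor gene of cross-presenting dendritic cells, had 1 called peak of 2, 10141 bp from the gene (chr9:123872170-123872364). KO samples read 2.60, 1.77 and 2.16 log2 CPM, P915H samples 2.69, 3.27 and 3.25 and WT samples 2.88, 3.13 and 2.75. The KO samples were lowest, with KO replicate 1 close to P915H replicate 1, and KO minus P915H was -0.89 (SE 0.25, limma adjusted p = 0.0402; at most 0.202). The call was lost without KO replicate 2, KO replicate 3, P915H replicate 2, P915H replicate 3 or WT replicate 1, and without a variance trend. None of the 9 Siglech peaks was called (-0.60 to 0.38), nor any of the 3 Ccr9 peaks (-0.39 to 0.03) or the Clec9a peak (-0.42, limma adjusted p = 0.368).

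KO against WT asks what loss of the receptor does, and P915H against WT what the mutant receptor does. Neither comparison called any of the 106 peaks by limma. Over all peaks, 0.0195% passed for KO against WT and 0.255% for P915H against WT. Unadjusted p-values under 0.05 were found at 23 of the 106 peaks for KO against WT (21.7%, beside 18.7% of all peaks) and at 9 for P915H against WT (8.49%, beside 7.72%), shares near the background. Both share the WT samples. The smallest adjusted p for KO against WT was 0.0649, at the Cebpb peak 5434 bp from the gene (KO minus WT -0.95). After it came the Zbtb46 peak that was higher in KO (0.99, adjusted p = 0.0669), the Csf1r peak (-0.65, 0.0731) and the Cebpb peak 57979 bp away (-0.76, 0.0798).

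For P915H against WT the smallest adjusted p was 0.256, at the Cebpe peak 740 bp from the gene (P915H minus WT -1.02), where KO minus WT was 1.02 (limma adjusted p = 0.0898). The WT mean lay between those of KO and P915H at this peak, at the called Csf1r peak, at both called Flt3 peaks and at the Zbtb46 peak with the smallest adjusted p. These peaks were picked by their difference between KO and P915H, which favours a WT mean in between, so this order is only a description. A p that misses the threshold does not show that the genotypes were alike.

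Further genes of the same programmes, outside the 33 and also listed with earlier results of these data known, were read the same way. The dendritic cell genes of this wider list (Irf8, Batf3, Id2, Spib, Bst2, Cadm1, Wdfy4, Ly75, Itgae, Ccr7, Clec4a4, Cd207, Cd300c, Ly6d and Lag3) had 136 peaks at 13 of 15 genes, 24 higher and 8 lower in KO than in P915H (23.5% called, beside 15.5% of all peaks, of which 6.55% were higher and 8.97% lower), with a median log2 difference of 0.10. The macrophage and monocyte genes (among them Spi1, which encodes PU.1, Csf2rb, Maf, Mrc1, Fcgr3 and Timd4) had 75 peaks at 15 of 20 genes, 11 higher and 3 lower (18.7% called, median 0.10). The neutrophil genes (among them Gfi1, Ltf, Camp, Lcn2, Ctsg and Trem1) had 27 peaks at 8 of 15 genes, 2 higher and 3 lower (18.5% called, median -0.10). The shares of the latter lists were near the background, and no list was tested against it. Of the calls in the dendritic cell list, 11 belonged to 1 gene, Cadm1, so its share rests in part on that gene. None of the 5 Spi1 peaks was called (-0.10 to 0.27).

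Cadm1, an adhesion molecule gene of cross-presenting dendritic cells, accounted for 11 of the 24 higher peaks. The gene lies on chromosome 9, as does Tlr9, and linked DNA cannot be told apart from Tlr9 genotype there either. It had 16 peaks, 11 higher and 0 lower in KO, with a median difference of 1.27, and 7 to 11 were called when any sample was left out (7 without KO replicate 3). At chr9:47642734-47642947 KO samples read 3.23, 3.42 and 3.51 log2 CPM, P915H samples 0.39, 0.52 and -0.18 and WT samples 2.51, 2.19 and 2.80. P915H was far below both other groups, and KO minus P915H was 3.14 (SE 0.26, limma adjusted p = 0.000354). At chr9:47755169-47755401 KO read 3.27, 3.27 and 3.29, P915H 0.55, 0.72 and 0.83 and WT 2.11, 1.94 and 1.81, with 3 separate groups and a difference of 2.58 (SE 0.21, limma adjusted p = 0.000328). Both differences passed without each of the 9 samples in turn.

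**Figure D5:**
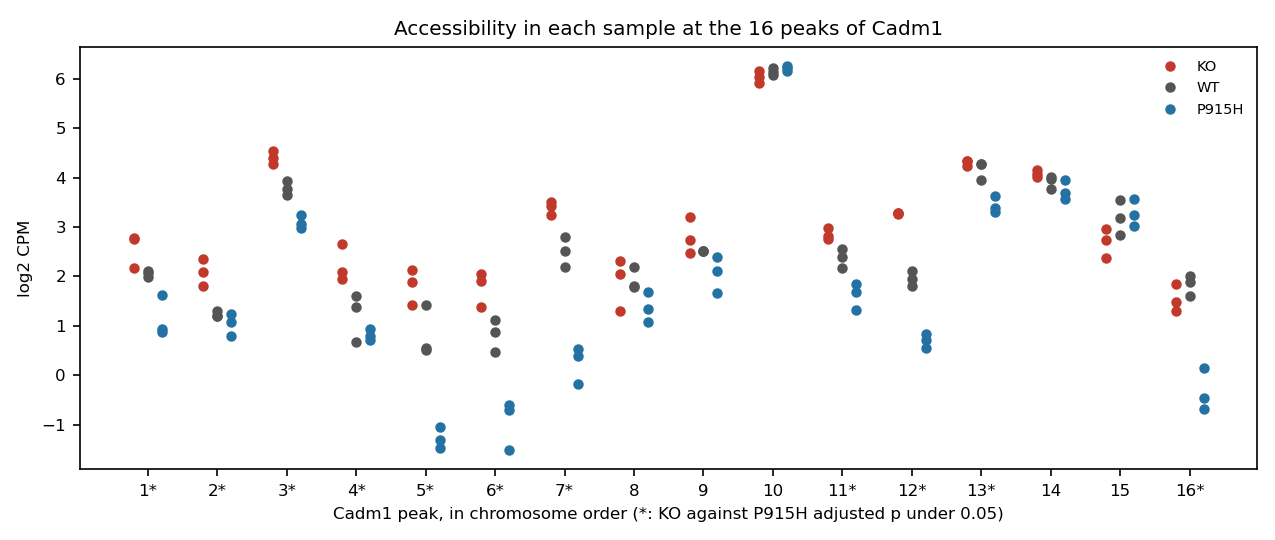
Accessibility (log2 CPM) of each sample at the 16 Cadm1 peaks, in chromosome order, with KO, WT and P915H side by side and a star at the 11 peaks called between KO and P915H. P915H samples lie lowest at most starred peaks, and peak 10 shows no separation.

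Batf3, the transcription factor gene that cross-presenting dendritic cells require, had 6 of 12 peaks higher in KO and 0 lower (2 to 6 when any sample was left out). The calls lost were those of 4 peaks, all of them without KO replicate 2, KO replicate 3, P915H replicate 1 or P915H replicate 2, and some without P915H replicate 3 or WT replicate 1 (limma adjusted p up to 0.207). The peak 2405 bp from it (chr1:191111348-191111566) read 4.33, 4.67 and 4.36 in KO, 3.61, 3.59 and 3.66 in P915H and 4.08, 3.76 and 3.99 in WT, with separate groups and a difference of 0.83 (SE 0.15, limma adjusted p = 0.00610). Irf8, a transcription factor gene that both dendritic and B cells use, had 2 of 34 peaks higher in KO. The call at chr8:120709290-120709504 was lost without KO replicate 2, KO replicate 3, any P915H replicate or WT replicate 1 (limma adjusted p up to 0.221). The Irf8 peak 4447 bp from the gene (chr8:120731700-120731911) read 4.36, 4.35 and 4.28 in KO, 2.95, 2.66 and 2.85 in P915H and 3.62, 3.91 and 3.79 in WT. This was a difference of 1.51 (SE 0.15, limma adjusted p = 0.000601), in the order KO, WT, P915H without overlap. Lower in KO were 3 of 17 Ccr7 peaks, all lost without KO replicate 2, KO replicate 3, P915H replicate 2 or P915H replicate 3 (limma adjusted p up to 0.188), and 3 of 12 Wdfy4 peaks, of which 1 held without each sample in turn. Called peaks of Batf3, Cadm1, Irf8, Spib (1 of 6 peaks) and Lag3 (1 of 8) were higher in KO than in P915H. Those of Flt3 (2 of 10), Xcr1 (1 of 2), Ccr7 and Wdfy4 were lower. Over all peaks 15.5% were called, and the share of no single gene was tested against that. Calls went both ways at Zbtb46 (3 higher, 2 lower), Id2 (2 higher, 1 lower) and Itgae (1 higher, 1 lower). Every call of Spib, Lag3, Id2 and Itgae was lost on leaving out at least 1 sample.

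Against WT, 4 peaks of these dendritic cell genes were lower in P915H and 0 higher, 3 at Cadm1 and 1 at Irf8. Over all peaks 155 were lower (0.252%) and 2 higher (0.00325%), so this direction is that of the whole table. The Cadm1 peak at chr9:47642734-47642947 differed by -2.25 (limma adjusted p = 0.0114), and was lost without P915H replicate 1 or WT replicate 1 (at most 0.140). The Irf8 peak differed by -0.96 (adjusted p = 0.0343), and this call and those of the other 2 Cadm1 peaks were lost whichever of the 9 samples was left out. No peak of the 3 wider lists passed for KO against WT.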

How the data were processed

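ATAC-seq of 9 samples (3 each of KO, P915H and WT) had been summarised by the authors as deposited log2 values for 61540 peaks, with a companion table of peak coordinates (build mm10). The submitters' processing notes list limma, MACS2, Picard 2.18.12, Bowtie2 2.3.3, Trim Galore 0.6.5 and SAMtools, and assign them no role. The antilogs of the deposited log2 values sum to 0.987 to 1.014 times the CPM total in each sample. Read depth per sample is unknown, so no counting interval is given. The sources used here do not give whether peaks were called per sample or on pooled samples. Coordinates are printed as deposited.

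At every peak the means of replicates 1, 2 and 3 over the genotypes differed by at most 1.4211e-14. An effect of the replicate number had thus been removed per peak before deposit, an SD within a genotype is too small, and equal numbers cannot be checked as pairs in these values. The fit therefore holds a term for the replicate number (4 residual degrees of freedom in place of 6). The model, fitted in R 4.3.3 with limma 3.58.1 to the 9 samples together, had genotype and replicate number as terms and a variance trend. Tests were two-sided, p-values were adjusted by Benjamini-Hochberg over the 61540 peaks, and the threshold was 0.05. Neither a filter nor a pseudocount was applied. The scripts were tested on simulated data.

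Genes came from the RefSeq table of GRCm38.p6, which matched all 33 symbols. Start windows from RefSeq (250 bases before to 50 after a start) matched 24 of the 33 genes. Exons and introns were not analysed here. Named with their tests were called peaks in order of adjusted p, at most 10 macrophage and monocyte, 4 neutrophil and 8 dendritic cell peaks, plus the most open WT peak of each gene. The Cebpb peak higher in KO and the uncalled peaks named with a value were added after their values were seen. The genes and lists, markers and wider lists included, were chosen with earlier results of these data known. Levels per kb divide the CPM by peak length in kb. Summed CPM adds the antilogs over a list's peaks. Python 3.11.15 with matplotlib 3.10.9, NumPy 2.4.6 and pandas 2.3.3 made tables and plots. Alternatives changed the scaling, sample weights, samples, variance trend, low-value filter, threshold and the rule that gives peaks to genes.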

Additional observations from a re-analysis of the deposited data

How the results depend on the processing

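Of the 106 peaks, 21 were called between KO and P915H. This count was 33 with no replicate block (27.7% of all peaks were then called), a fit that counts degrees of freedom the values no longer hold. It was 7 at an adjusted p of 0.01 and 12 with peaks in gene bodies only, both by construction. With 1 sample left out it ran from 7 to 25. Under 9 other settings it was 18 to 28 (quantile normalization, median centring, sample weights, only the 2 genotypes compared, no variance trend, low peaks left out, an adjusted p of 0.1, a 50 kb limit and, chosen after seeing the data, shared peaks left out). All 21 calls were among those made with no replicate block.

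KO against WT had 0 calls. It had 13 with no replicate block (11.1% of all peaks then called), 1 after quantile normalization (1.15%), 1 after median centring (1.04%), 4 with sample weights (2.50%), 9 at an adjusted p of 0.1 (4.59%), and 0 to 7 with 1 sample left out (7 without KO replicate 1, 5.43%). Counts over all peaks rose under the same settings, and the cause was not tested. P915H against WT had 0 calls, 2 with no replicate block and 0 to 0 with 1 sample left out. No direction of a difference named as called reversed under any of these settings. This does not cover the uncalled differences named with a value, which can be small beside their SE. Changes of low, weakly open peaks are the least precise, since depth is unknown.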
